A study of Mus musculus with 6 samples.

Results

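The 8 GIMAP genes of the mouse (Gimap1, Gimap3, Gimap4, Gimap5, Gimap6, Gimap7, Gimap8 and Gimap9) were examined in splenic B cells of p80HT transgenic mice and of wild-type (WT) littermates. The genes were taken by their symbols on the array, all 8 were found among 19938 genes, and each is read by 1 probeset that carries no other symbol. The p80HT mice carry the human coding sequence of p80HT, a lymphoma-associated truncated form of NF-κB2, driven in both T and B lymphocytes by an H-2Kb promoter with an immunoglobulin μ enhancer. All mice were 1 year old on a mixed C57BL/6J x SJL/J background, the p80HT mice had tested positive for monoclonal immunoglobulin in serum, and the WT littermates lack the transgene. Cells were taken with beads by B220, the CD45 isoform found on mouse B cells, and RNA of 3 p80HT and 3 WT mice was measured on 1 Affymetrix Mouse Gene 1.0 ST array each. Values are log2 probeset signals, so a difference of 1 is a 2-fold change, and they compare mice for a gene and not genes with each other.

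GIMAP proteins (GTPases of immunity-associated proteins) are small GTP-binding proteins found mainly in lymphocytes, where they sit on membranes of the endoplasmic reticulum, mitochondria, lysosomes and Golgi and affect how long resting T and B cells survive. Animals without Gimap5 lose peripheral T cells, and Gimap1 is needed to keep mature T and B cells. They are much studied in T cells, so each gene was also set beside Cd3e, which encodes part of the T cell receptor complex and is not made by B cells.

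The genes form a single group on chromosome 6. In RefSeq (GRCm38.p6) their order is Gimap8, Gimap9, Gimap4, Gimap6, Gimap7, Gimap1, Gimap5 and Gimap3, with no other protein-coding gene between them, and Gimap6 and Gimap3 run on the minus strand. The sequences before the start sites of 3 members are shown because Gimap7 and Gimap9 varied most between the mice and Gimap3 least. Each is the 250 bases upstream of the annotated start, 5′ to 3′ on the strand of the gene. Capitals mark matches on either strand to a κB-like pattern (GGG and CC with 5 unspecified bases between them), an ETS pattern (GGAAGT) or a RUNX pattern (TGTGGT).
Gimap7, chr6:48718371-48718620, plus strand: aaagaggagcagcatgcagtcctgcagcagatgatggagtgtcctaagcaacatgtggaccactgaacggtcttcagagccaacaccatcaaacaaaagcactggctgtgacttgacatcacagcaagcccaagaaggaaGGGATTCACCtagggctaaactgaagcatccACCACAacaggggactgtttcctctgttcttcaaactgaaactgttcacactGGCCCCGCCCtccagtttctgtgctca
Gimap9, chr6:48675885-48676134, plus strand: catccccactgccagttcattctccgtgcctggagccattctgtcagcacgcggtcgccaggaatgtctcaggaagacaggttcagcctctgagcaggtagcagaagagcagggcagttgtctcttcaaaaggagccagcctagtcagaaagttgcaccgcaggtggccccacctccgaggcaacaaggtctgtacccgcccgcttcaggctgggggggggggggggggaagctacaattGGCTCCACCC
Gimap3, chr6:48770852-48771101, minus strand: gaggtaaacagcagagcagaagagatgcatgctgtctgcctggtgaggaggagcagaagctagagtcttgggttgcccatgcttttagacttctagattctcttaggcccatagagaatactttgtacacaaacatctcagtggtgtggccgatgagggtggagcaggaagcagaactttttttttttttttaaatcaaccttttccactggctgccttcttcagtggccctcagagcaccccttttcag
Gimap7 holds 2 matches to the κB-like pattern and 1 to the RUNX pattern, Gimap9 holds 1 κB-like match directly before its start, and in the Gimap3 window these letters do not occur. Of the 9 annotated windows of the 8 genes, 5 hold the κB-like pattern (in Gimap4, Gimap7, Gimap8 and Gimap9, with the pair in Gimap4 overlapping on opposite strands), against 45.8% of all 32851 windows of this length. The windows of Gimap8 overlap and hold the same κB-like matches, so that by gene this pattern is in 4 of 8. The ETS pattern is in 2 of the 9 windows (Gimap5 and Gimap6) and in 19.7% of all windows. The RUNX pattern is in 3 (Gimap1, Gimap4 and Gimap7) and in 14% of all windows. Such matches describe the letters and are no evidence of binding.

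Before the results, the arrays differ in what else they hold. Cd79a, a chain of the B cell receptor, lay between 12.06 and 12.47 on 5 arrays and at 10.81 on p80HT replicate 3. That array correlated with the others at 0.914 to 0.925 across genes, while these correlated with each other at 0.981 or above. It carries gland and stroma transcripts, with Pip at 13.70 against at most 5.51 elsewhere, and the log2 fold changes of the GIMAP genes, the counts of calls and the list medians are therefore also given without it. The mouse gene Nfkb2 was at 10.86 ± 0.07 in WT and 10.69 ± 0.16 in p80HT (log2 signal, mean ± SD, n = 3), and as the transgene is human this does not check the genotype. In RNA of mixed cells, fewer cells of a type and less RNA in each cannot be told apart.

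None of the 8 GIMAP genes passed the threshold between p80HT and WT B cells. Cd3e, read from the same arrays, rose 3.34-fold (limma adjusted p = 0.211), and 2.43-fold without p80HT replicate 3. In an analysis of variance Cd3e did not pass. A gene was called at a difference of 1.5-fold or more with a p under 0.01 before adjustment. These limits are those of the study's methods, which took the p from analysis of variance, while here it comes from limma. By this rule 0 of the 8 rose and 0 fell, where 2.19% of all 19938 genes were called, 1.22% as higher and 0.968% as lower. After Benjamini-Hochberg adjustment across the whole array, 0 of the 8 had a p under 0.05 (0.0552% of all genes did). At an unadjusted p under 0.05 there were also 0 of 8, both in limma and in the methods' analysis of variance, while limma gave 10.2% of all genes. The p80HT and WT arrays overlapped for all 8, and they were fully apart for 20.8% of all genes. With 8 genes, counts of 0 do not set the group apart from these shares. Group means were higher in p80HT for 3 members and lower for 5. The median log2 fold change of the 8 was -0.14, beside -0.02 over all genes, and the median of its size was 0.21, beside 0.14.

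**Figure D1:**
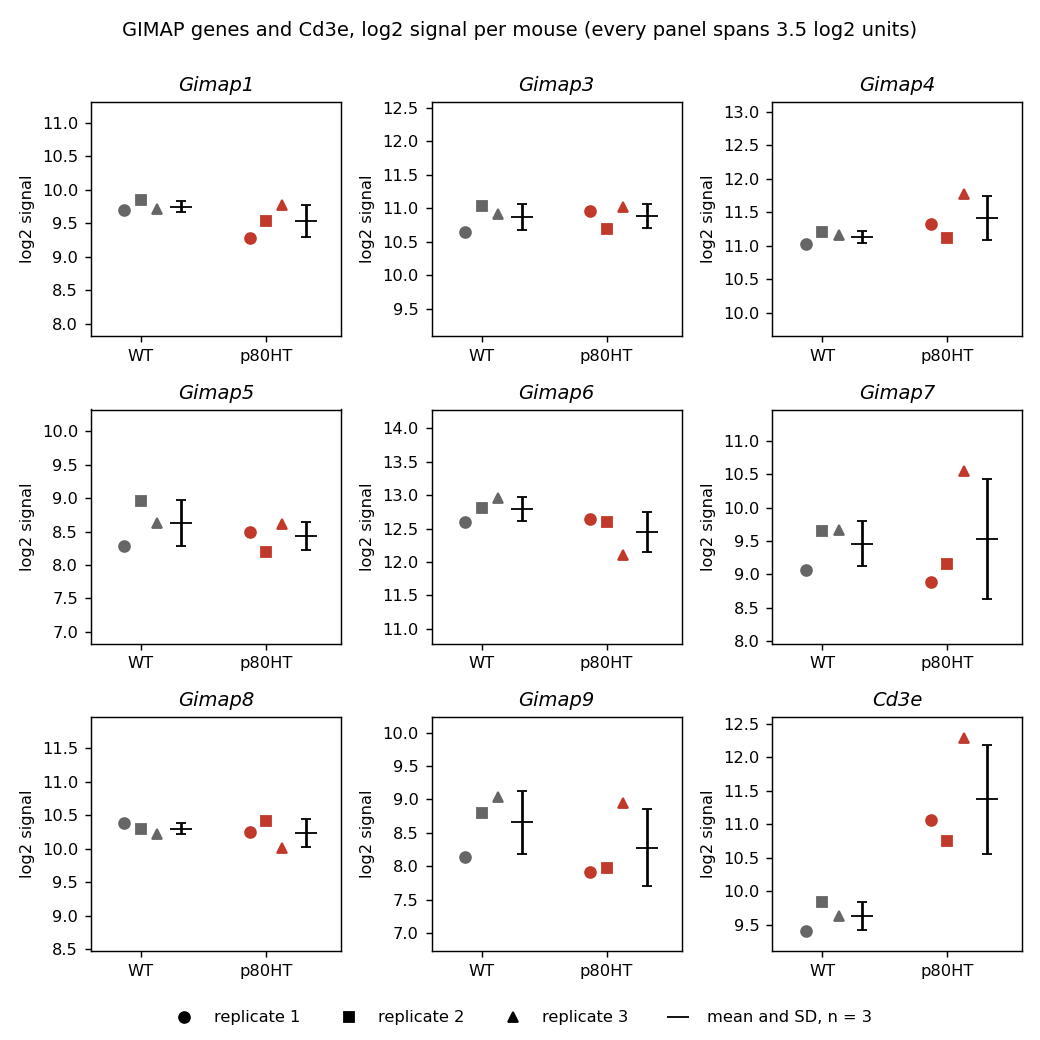
Log2 signal (vertical axis) of the 8 GIMAP genes and of Cd3e in each mouse, WT in grey and p80HT in red, with marker shapes for replicates 1 to 3 and bars for the group mean and SD (n = 3); every panel spans 3.5 log2 units. The groups overlap in all 8 GIMAP panels, while the 3 p80HT values of Cd3e (10.75 to 12.29) lie above the 3 WT values (9.41 to 9.83).

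The members with known roles in lymphocyte survival come first. Gimap5, a lysosomal GTPase without which T cells are lost, was at 8.29, 8.96 and 8.63 in WT replicates 1 to 3 and at 8.49, 8.19 and 8.61 in p80HT replicates 1 to 3. Its p80HT values all lay between or just under the WT values, with a log2 fold change of -0.20 (95% interval -0.68 to 0.28, limma adjusted p = 0.832), and of -0.29 without p80HT replicate 3. Gimap3, a close relative whose product acts together with Gimap5 in T cell survival, was at 10.64, 11.04 and 10.92 in WT and at 10.96, 10.69 and 11.02 in p80HT. The log2 fold change was 0.02 (-0.36 to 0.40, adjusted p = 0.994), and -0.04 without p80HT replicate 3, and the range of 0.40 over the 6 mice was the narrowest of the 8. Whether the probesets of these related genes share signal was not tested, as probe sequences were not used here. Gimap1, which mature lymphocytes need to persist, was at 9.70, 9.85 and 9.71 in WT and at 9.28, 9.54 and 9.77 in p80HT. p80HT replicates 1 and 2 were below all WT mice and replicate 3 was within their range, giving -0.23 (-0.59 to 0.14, adjusted p = 0.666).

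Gimap4 and Gimap6 act in cell death and in autophagy. Gimap4, which speeds the death of T cells, was at 11.03, 11.20 and 11.16 in WT and at 11.33, 11.12 and 11.77 in p80HT. p80HT replicate 3 was the highest of the 6 and exceeded the next by 0.45, and the log2 fold change was 0.28 (-0.16 to 0.71, adjusted p = 0.657) with it and 0.09 without it. Gimap6, a partner of the autophagy protein encoded by Gabarapl2, was at 12.60, 12.81 and 12.95 in WT and at 12.65, 12.60 and 12.11 in p80HT. Here p80HT replicate 3 was the lowest, by 0.48, and the log2 fold change was -0.33 (-0.77 to 0.10, adjusted p = 0.585) with it and -0.16 without it.

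Gimap8 was the steadiest member in WT together with Gimap1. Gimap8, whose protein carries several GTP-binding domains in a row, was at 10.38, 10.30 and 10.22 in WT and at 10.25, 10.42 and 10.01 in p80HT, with a log2 fold change of -0.07 (-0.42 to 0.27, adjusted p = 0.954), and 0.03 without p80HT replicate 3. Its WT SD was 0.08, as was that of Gimap1.

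Gimap7 and Gimap9 spread most. Gimap7, a GTPase whose paired molecules trigger each other's GTP hydrolysis, was at 9.07, 9.65 and 9.67 in WT and at 8.88, 9.15 and 10.55 in p80HT. p80HT replicate 3 was 0.88 above the next mouse and the other p80HT mice were below the WT mean, so that the mean difference of 0.07 had the widest interval of the 8 (-0.94 to 1.07, adjusted p = 0.994). Gimap9 was at 8.14, 8.80 and 9.04 in WT and at 7.92, 7.98 and 8.95 in p80HT. p80HT replicates 1 and 2 were the lowest of the 6, and its log2 fold change was -0.38 (-1.18 to 0.42, adjusted p = 0.778). WT replicate 1 was the lowest WT mouse for 7 of the 8 members, all but Gimap8, so that for Gimap7 and Gimap9 it lay nearer to p80HT replicates 1 and 2 than to the other WT mice.

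The intervals say how large a change the 6 arrays leave possible. For Gimap3 and Gimap8 the 95% interval stayed within a 1.5-fold change in either direction (0.58 on the log2 scale). It reached beyond a 1.5-fold fall for 5 members (Gimap1, Gimap5, Gimap6, Gimap7 and Gimap9) and beyond a 1.5-fold rise for 2 (Gimap4 and Gimap7). The standard errors were like those of other genes, with a median of 0.18 over the 8 and 0.17 over all genes.

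Without p80HT replicate 3, Gimap9 fell. Its log2 fold change became -0.71 (95% interval -1.20 to -0.23), past the threshold of the study, with a limma adjusted p of 0.0995. It was alone among the 8, and without that array 1.45% of all genes were called lower and 2.01% higher. Gimap1 (-0.35, limma adjusted p = 0.133) and Gimap7 (-0.45, limma adjusted p = 0.192) did not pass. Before adjustment the p was under 0.05 for these 3 of the 8, beside 21.6% of all genes. The median of the 8 was -0.23, beside 0.04 over all genes, with 6 members lower and 2 higher in p80HT. When every array was weighted by its agreement with its group, p80HT replicate 3 received a weight of 0.0687 and WT replicate 1 one of 0.502. WT replicate 3 received 6.88 and p80HT replicate 1 received 4.23, so that these arrays dominate the fit. In it Gimap9 (-1.02, limma adjusted p = 0.000495) and Gimap7 (-0.67, limma adjusted p = 0.00298) were called lower, beside 2.12% of all genes. The weights come from the same 6 arrays, and their uncertainty is not part of these p-values.

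**Figure D2:**
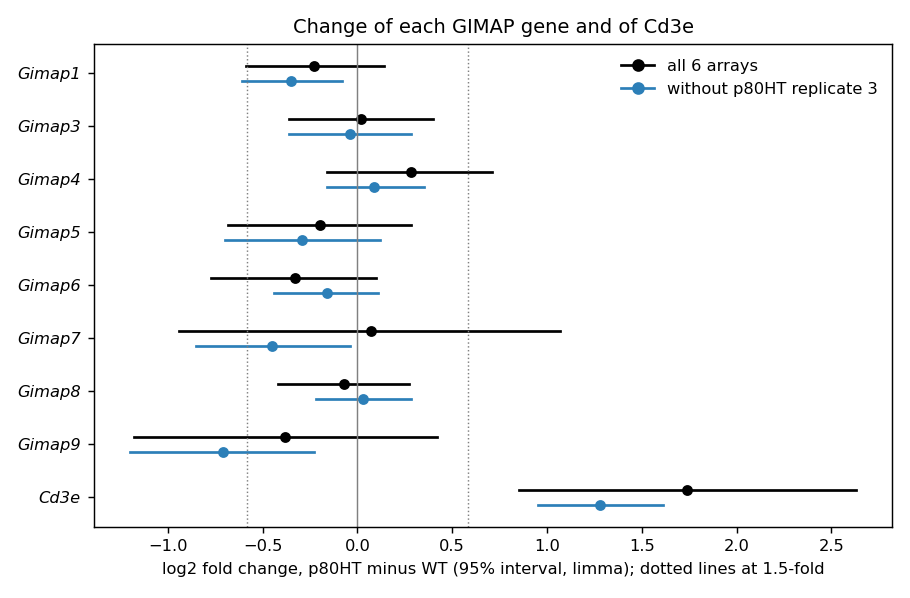
Log2 fold change (horizontal axis, p80HT minus WT) with its 95% interval from limma for the 8 GIMAP genes and Cd3e, from all 6 arrays in black and without p80HT replicate 3 in blue; dotted lines mark a 1.5-fold change. All 8 black GIMAP intervals span 0, and of the blue ones those of Gimap1, Gimap7 and Gimap9 lie below 0, while Cd3e stays above 0 at 1.74 and 1.28.

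Each member was then set beside Cd3e on the same array. Cd3e was at 9.41, 9.83 and 9.63 in WT and at 11.07, 10.75 and 12.29 in p80HT, so that every p80HT mouse lay above every WT mouse. Its log2 fold change was 1.74 (95% interval 0.85 to 2.63, limma adjusted p = 0.211), a call that did not hold without WT replicate 1 (1.64) or in the methods' analysis of variance. Without p80HT replicate 3 it was 1.28 (limma adjusted p = 0.00147), and with array weights 1.38 (limma adjusted p = 2.02e-05). Relative to the WT mean, Cd3e was 1.44 higher on p80HT replicate 1, 1.12 on replicate 2 and 2.66 on replicate 3. On replicate 1 the GIMAP genes ranged from -0.75 (Gimap9) to 0.20 (Gimap4) on the same scale, and on replicate 2 from -0.68 (Gimap9) to 0.12 (Gimap8). On replicate 3, where Cd3e was highest, they ran from -0.68 (Gimap6) to 1.09 (Gimap7), with Gimap4 at 0.64 and Gimap9 at 0.29.

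The difference between the groups was smaller than that of Cd3e for all 8 members. The change of the member minus that of Cd3e was smallest in size for Gimap4 (-1.47) and largest for Gimap9 (-2.12) and Gimap6 (-2.08), with a median of -1.88 over the 8 (-1.51 without p80HT replicate 3). For all 8 the within-array difference in each of the 3 p80HT mice was below that in each WT mouse. The 2-sided exact permutation test gave p = 0.10 for each of the 8 comparisons (0.10 after Benjamini-Hochberg adjustment), the smallest value that 3 against 3 arrays allow. Cd3e by itself already separated the groups and is the reference in all 8 comparisons. They are therefore not 8 separate results about the GIMAP genes. With the mean of 17 T cell markers, Cd3e among them, in place of Cd3e alone, the differences ran from -1.50 to -0.85. Such a difference describes unequal change on the log2 scale and not that the GIMAP genes were unchanged. Cd3e is not made by B cells, whereas GIMAP proteins are found in T and B cells. A gap between them on this scale is therefore no measure of T cell content. The part of T cells in the GIMAP values was not tested.

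**Figure D3:**
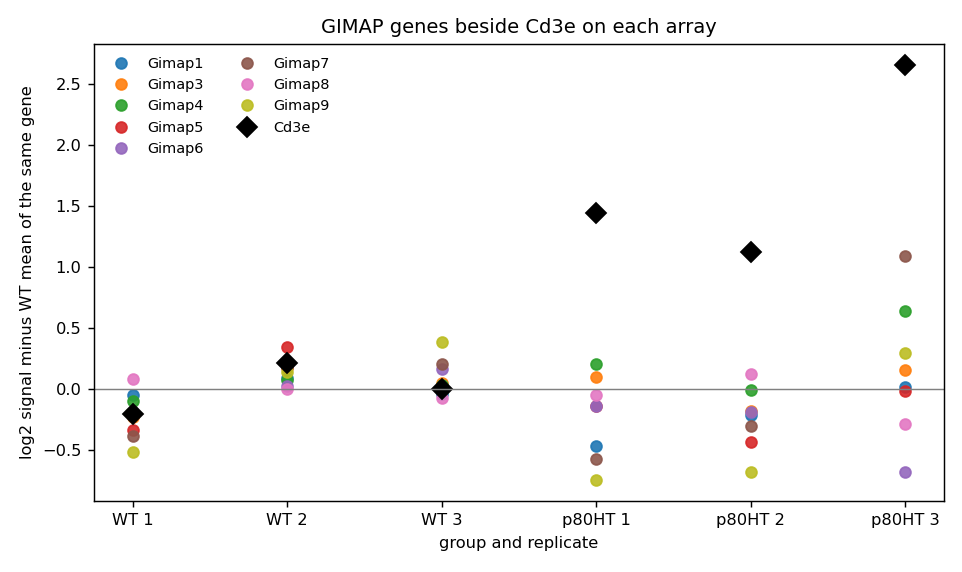
Log2 signal minus the WT mean of the same gene (vertical axis) on each of the 6 arrays (horizontal axis), coloured circles for the 8 GIMAP genes and black diamonds for Cd3e. On the p80HT arrays Cd3e lies at 1.44, 1.12 and 2.66, above all GIMAP genes, and the GIMAP genes are spread widest on p80HT replicate 3, from -0.68 to 1.09.

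Markers of other cells moved on the same arrays. Of 20 listed T cell genes 17 were measured, and 5 rose, none fell and 12 did not pass (median log2 fold change 1.14). Without p80HT replicate 3, 13 of the 17 rose and none fell, with a smaller median of 0.67. Besides Cd3e the 5 are Cd3g (2.03), a further chain of the receptor complex, the co-stimulatory receptor gene Cd28 (0.92), the T cell transcription factor gene Bcl11b (0.94) and Cd5 (1.10), which B-1 cells also carry. The summed signal of the list was 13.21 to 13.46 (log2) in WT and 13.90 to 14.99 in p80HT. Of 9 measured B cell genes none passed (median -0.48), 8 were lowest on p80HT replicate 3, and the summed signal was 15.52 to 15.74 in WT and 14.31 to 15.49 in p80HT. Among them Cr2, a complement receptor (-1.99), and Fcer2a, the low-affinity IgE receptor (-1.80), had the smallest p. The median without p80HT replicate 3 was -0.19, and Cr2 (-1.13, limma adjusted p = 0.0021) and Fcer2a (-1.0, limma adjusted p = 0.00367) fell. Of 7 natural killer cell genes none passed (median 0.28), with Eomes at 1.13 and Klrk1 at 0.90. Leaving out p80HT replicate 3, the median was 0.24, Eomes rose (0.60, limma adjusted p = 0.0623) and Klrk1 was at 0.39. Their summed signal was 10.73 to 11.04 in WT and 10.93 to 12.12 in p80HT.

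Of 8 endothelial genes, 1 fell, Pecam1 (-0.92), an adhesion molecule that B cells also make, and none rose (median 0.67). Pecam1 also fell without p80HT replicate 3 (-0.74), and the median was 0.22. The summed signal of the endothelial list was 11.68 to 11.78 in WT, 11.33 and 11.38 in p80HT replicates 1 and 2, and 12.26 in p80HT replicate 3. Of 8 macrophage genes Vsig4 (0.62) and Adgre1 (0.72) rose and none fell (median 0.96). Both also rose without p80HT replicate 3 (0.61 and 0.92), with a median of 0.53. The summed signal was 12.29 to 12.42 in WT and 12.84 to 14.63 in p80HT. Vsig4 signals were low, at 5.67 to 6.36 on the 6 arrays, below the array medians of 7.68 to 7.81. Of 8 gland and stroma genes none passed, with Krt8 and Col1a1 both at 0.55 (median 0.60, and 0.16 with none past without p80HT replicate 3), and all 8 were highest on p80HT replicate 3, where their summed signal was 15.16 against at most 10.83 elsewhere. The part of these cells in the GIMAP values was not tested.

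Genes that work with GIMAP proteins or in the same resting cells were counted next. Of 11 measured genes of the BCL2 family and of autophagy, none passed (median 0.02, and -0.09 without p80HT replicate 3). Bcl2l11, which encodes the death-promoting protein BIM, was at -0.58 (fold 0.669) with all p80HT arrays below all WT arrays and missed the 1.5-fold threshold, as it did without p80HT replicate 3 (-0.57). Map1lc3a, an autophagy gene, was at -0.35. Bcl2 was at 0.14 (0.31 without p80HT replicate 3) and Gabarapl2 at -0.08. Of 11 measured genes of resting lymphocytes Satb1, an organiser of chromatin, fell (-1.24), none rose and 10 did not pass (median -0.65). Satb1 also fell without p80HT replicate 3 (-1.09), and the median was -0.26. In this list 10 of the 11 genes were lowest on p80HT replicate 3, with Klf2 at 10.11 there and between 12.33 and 12.65 on the others. Of the 8 GIMAP genes, 2 (Gimap6 and Gimap8) were lowest on it and 2 (Gimap4 and Gimap7) were highest. Among the 11 genes of the BCL2 family and of autophagy, 4 were lowest on it and 4 were highest. These counts were not set beside a share over all genes.

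The interferon-induced GTPases of the GBP and IRG families, which act against microbes inside cells, were counted beside them. Of 8 measured of 15 listed, 1 rose, Gbp7 (1.39), and none fell (median 0.76). Without p80HT replicate 3, 3 rose, Gbp7 among them (0.94), and none fell (median 0.33). All 8 were highest on p80HT replicate 3. For 5 of the 8 every p80HT value exceeded every WT value, against 0 of the 8 GIMAP genes. The groups did not overlap, in either direction, for 20.8% of all genes. With 8 genes, a count of 0 does not set the GIMAP genes apart from this share.

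The genes beside the GIMAP group on chromosome 6 were taken by position, 5 on each side. All 10 were measured and none passed. Tmem176b and Tmem176a, a pair of membrane proteins known from dendritic cells, come directly after Gimap3. Tmem176b was at 9.87, 9.76 and 9.75 in WT and at 10.54, 10.37 and 12.35 in p80HT (log2 fold change 1.29, limma adjusted p = 0.440), and without p80HT replicate 3 it rose (0.66, limma adjusted p = 0.00913), alone among the 10. Tmem176a was at 8.87, 8.83 and 8.96 in WT and at 9.64, 9.30 and 12.02 in p80HT (1.43, adjusted p = 0.511), and was at 0.58 without replicate 3. For this pair, and for Repin1 (0.31, and 0.10 without p80HT replicate 3) and Aoc1 (0.53 and 0.23), the groups did not overlap. Over all genes this was so for 20.8%. The gap for Repin1 was small, with WT values up to 8.74 and p80HT values from 8.78. The log2 fold changes of the other neighbours were -0.38 for Lrrc61, 0.63 for Rarres2, -0.19 for Gm5111, 0.08 for Zfp775, -0.05 for Gm7932 and -0.17 for Doxl1. Rarres2 was at 8.97 on p80HT replicate 3 and at most 6.86 on the others, which gave -0.14 without that array.

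**Figure D4:**
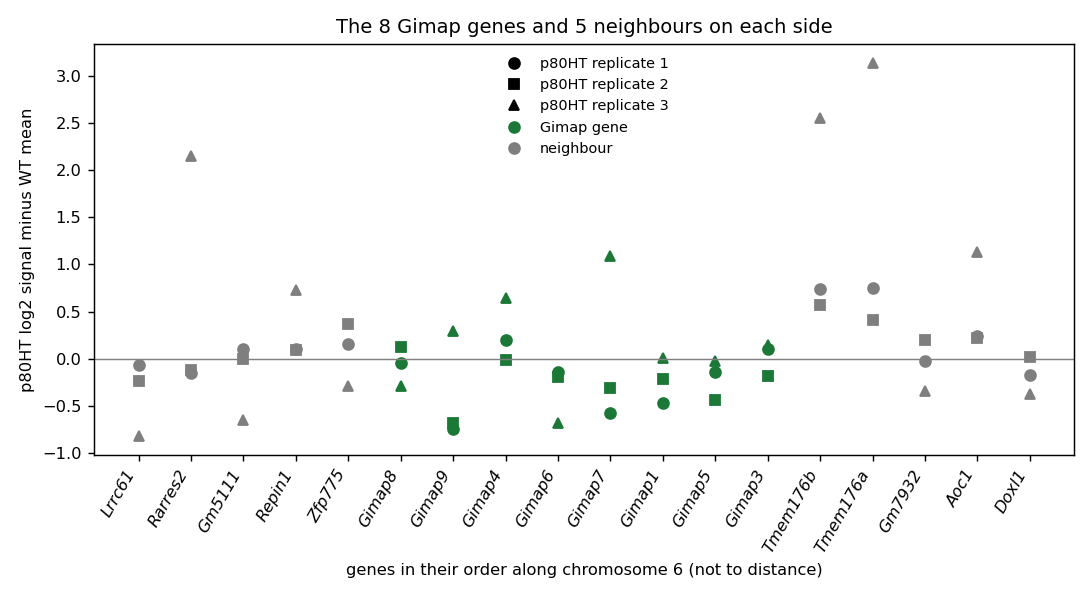
Log2 signal of each p80HT array minus the WT mean of the same gene (vertical axis) for the 8 GIMAP genes in green and 5 neighbours on each side in grey, in their order along chromosome 6 (horizontal axis, not to distance), with marker shapes for p80HT replicates 1 to 3. The GIMAP genes stay between -0.75 and 1.09, while Tmem176b and Tmem176a reach 2.55 and 3.14 on replicate 3.

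The genes with the pattern most like the average GIMAP profile were taken from 3301 genes whose range over the 6 arrays was at least 1. The averaged profile is an unscaled mean, so Gimap7 and Gimap9, which spread most, weigh most in it. Members differed on p80HT replicate 3, where Gimap4 and Gimap7 were the highest of the 6 arrays and Gimap6 and Gimap8 the lowest. This averaged profile was 0.18 and 0.14 on WT replicates 2 and 3 and 0.20 on p80HT replicate 3, and -0.16, -0.18 and -0.19 on WT replicate 1 and p80HT replicates 1 and 2. The highest Pearson correlations with it over the 6 arrays were 0.988 for Scp2, 0.971 for Zfp101 and Actr6, 0.968 for Gcc2 and 0.967 for Platr25, which is a description of so few arrays. None of these 5 passed the threshold (log2 fold changes -0.35 to -0.26). Without p80HT replicate 3 all 5 were between -0.67 and -0.58, and Scp2 (-0.62), Actr6 (-0.67) and Gcc2 (-0.65) fell.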

How the data were processed

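Splenic B cells of 3 p80HT and 3 WT mice were measured on Affymetrix Mouse Gene 1.0 ST arrays, 1 per mouse. Per the labels, the authors summarised the arrays by RMA in Partek and deposited log2 signals per probeset. The versions are not given in the sources used here. Medians of the 6 arrays were 7.68 to 7.81, and the lowest GIMAP value was 7.92. As arrays give no read depth, the number of mice limits the precision. Of 28853 probesets, 21789 carry exactly 1 symbol, and they cover 19938 genes. Where a gene has several, the probeset with the highest mean over the 6 arrays was taken. Gene identifiers of the 8 GIMAP genes matched RefSeq.

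p80HT was compared with WT by 2-sided limma tests without a block (lmFit, then eBayes; limma 3.58.1, R 4.3.3). Intervals are 95% and unadjusted. Within-array differences from Cd3e were tested by exact permutation. The 8 genes and all lists were chosen with earlier results of these data known, so lists are described by counts and medians only. Genes named from a list are up to 4 past the threshold, or the 2 with the smallest p. Cd5, Cd79a, Pip, Bcl2, Gabarapl2, Klf2, Aass and Msh5 were named after their values were seen. The steps were tested on simulated data, and tables and figures were made with Python 3.11.15, pandas 2.3.3 and matplotlib 3.10.9. Alternatives were each array left out, the replicate number as a block, ordinary analysis of variance, an intensity trend, array weights, quantile normalization, median centring, a filter at the 25th percentile of mean signal, and the mean of a gene's probesets.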

Additional observations from a re-analysis of the deposited data

How the results depend on the processing

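The count of GIMAP genes past the threshold was 0 to 1 without any 1 array, 2 with array weights (Gimap7 and Gimap9) and 0 in the other alternatives, an adjusted p under 0.05 included. Their median log2 fold change, -0.14, was -0.23 to -0.05 without any 1 array and -0.25 to -0.08 in the other alternatives. Median centring moved the median of all genes from -0.02 to -0.12 and that of the 8 to -0.23. Signs turned for members near 0. Gimap3 (0.02) was at -0.01 with array weights, at -0.07 with median centring and between -0.09 and 0.12 without any 1 array. Gimap7 (0.07) was at -0.67 and -0.03 in these settings and between -0.45 and 0.39. Gimap8 (-0.07) was at 0.04 with array weights, at 0.00 after quantile normalization and between -0.17 and 0.03. Gimap1, Gimap4, Gimap5, Gimap6 and Gimap9 kept their sign in all 14 refits. Cd3e kept its sign, at 1.28 to 2.05 without any 1 array, and was not called in the analysis of variance (1.74) or without WT replicate 1 (1.64, limma adjusted p = 0.48). The median change of the members minus that of Cd3e, -1.88, was -2.18 to -1.51 without any 1 array and -1.26 against the mean of the T cell markers. With the replicate number as a block 0 members were called, with a median of -0.14, and the count over all genes went from 436 to 567. That count was 196 in the analysis of variance, 900 with array weights and 691 without p80HT replicate 3. Same-numbered arrays deviated together at r = 0.074, -0.241 and 0.069, so the numbers are not taken to pair the mice. The causes of these shifts were not tested.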

Other observations

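Left without p80HT replicate 3, the average GIMAP profile separated WT replicates 2 and 3 (0.22 and 0.18) from WT replicate 1 and p80HT replicates 1 and 2 (-0.12, -0.14 and -0.15). Among 547 genes with a range of at least 1 over these 5 arrays, the nearest to it was Aass, an enzyme gene of lysine breakdown (Pearson r = 0.997 over 5 arrays, a description with no test). Aass was at 10.79 and 10.66 on WT replicates 2 and 3, at 6.24 on WT replicate 1 and at 6.26, 6.30 and 7.30 on p80HT replicates 1 to 3, so that mice of the WT group differed by more than 4 on the log2 scale. Msh5, a meiosis gene, split the same way, at 9.03 and 8.88 against 7.36 to 7.81 on the other 4 arrays. Not every GIMAP gene followed the averaged profile, in which Gimap7 and Gimap9 weigh most. Gimap8 had its highest WT value on replicate 1, and Gimap4 its highest value of these 5 arrays on p80HT replicate 1.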
